A study of Mus musculus with 3 samples.

Results

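Gm5878, 4921525O09Rik and Arhgap20 are 3 mouse genes whose transcripts give rise to piRNA-length reads, and they were examined because they had been picked for a larger share of such reads in mature sperm than in adult testis. Reads of 24 to 33 nt that match a transcript of a gene in full and in sense were assigned to it, which placed reads on these 3 genes among 30515 genes with at least 1 such read. CD1 mice, which are outbred, were the source of 3 small RNA libraries: mature sperm, the adult testis, and the adult uterus. The sperm were those of the cauda epididymis, where they are stored after leaving the testis, and had been kept in a detergent buffer that lyses somatic cells. No genetic change or drug separates the groups, testis is a tissue of germ cells at many stages mixed with somatic cells, and uterus holds no male germ cells. With 1 library per group no difference was tested, and every interval is a 95% interval for counting error only, since reads copied by PCR are not independent molecules.

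PIWI-interacting RNAs (piRNAs) are small RNAs of the germ line that are bound by PIWI proteins and silence transposons and other transcripts. In the adult mouse testis most of them come from long single-stranded precursor RNAs, made by germ cells in meiosis, that are cut into a succession of pieces with a strong preference for a 5′ uridine. Many precursors are noncoding RNAs, and others are messenger RNAs whose 3′ untranslated region (3′ UTR) is processed. Gm5878 (ENSMUSG00000072952.7) is annotated as a long intergenic noncoding RNA on the minus strand at chr6:85111416-85126125, with 1 transcript of 4674 bases in 3 exons. 4921525O09Rik (ENSMUSG00000113211.1) is a noncoding processed transcript on the plus strand at chr13:52096741-52124158, and its longest transcript has 3270 bases in 8 exons. Arhgap20 (ENSMUSG00000053199.13) lies on the plus strand at chr9:51765337-51853856 and encodes a GTPase-activating protein, a class of proteins that switch off small GTPases. Its longest transcript has 7161 bases in 15 exons. All coordinates are those of GRCm38, from the GENCODE annotation.

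The sequences that led Gm5878 are shown because 2 start positions dominate the sperm reads. They are printed as listed in the deposited tables, with T for U and a capital for the first base, and each is named by the transcript base at which it starts. The first 3 were among the 5 most abundant in sperm, and the last 2 were the first and the third in testis. All lie in exon 3.
Gm5878 base 3178, chr6:85112883-85112912, minus strand: Taccatagaagacgagtttggactgagcga
Gm5878 base 3183, chr6:85112878-85112907, minus strand: Tagaagacgagtttggactgagcgaaattc
Gm5878 base 2885, chr6:85113177-85113205, minus strand: Tagtagtggtttcttcctgaatggtgggc
Gm5878 base 1133, chr6:85114928-85114957, minus strand: Taggacagtatgttgaactcagcagaatcc
Gm5878 base 3414, chr6:85112647-85112676, minus strand: Taggacgcagagaaggtgtgaaggtcttcc

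For 4921525O09Rik the sperm leaders come from separate exons, here exons 2 and 7, and 2 leaders of testis, both from exon 7, follow them.
4921525O09Rik base 375, chr13:52098816-52098844, plus strand: Tgtaaggacattgaatttgggctcagcca
4921525O09Rik base 1719, chr13:52122301-52122327, plus strand: Tgatgtgaagatgaggaacttgggcgc
4921525O09Rik base 1942, chr13:52122524-52122553, plus strand: Tatggatgtaaagacgcaccacgcagatga
4921525O09Rik base 1848, chr13:52122430-52122459, plus strand: Tagagaactccgttctgtagctgccgcatg
4921525O09Rik base 1944, chr13:52122526-52122555, plus strand: Tggatgtaaagacgcaccacgcagatgatg

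For Arhgap20 the leaders all lie in the 3′ UTR within exon 15. The first 4 were the leading sequences of sperm, and the last was the second most abundant in testis.
Arhgap20 base 4433, chr9:51851128-51851157, plus strand: Tctgaaatggagatacaaagacaaggaagg
Arhgap20 base 5149, chr9:51851844-51851873, plus strand: Tgagattggcagactgtaagattattgagg
Arhgap20 base 3964, chr9:51850659-51850687, plus strand: Tgagattttcagatactgatagaagggta
Arhgap20 base 5147, chr9:51851842-51851871, plus strand: Tttgagattggcagactgtaagattattga
Arhgap20 base 4361, chr9:51851056-51851085, plus strand: Taatcgggcagctcggttggtttttgttgt

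The sperm library was sequenced to 15690722 reads, the testis library to 23783785 and the uterus library to 15876066. The share of 24 to 33 nt reads was 71.7% in sperm, 98.0% in testis and 11.6% in uterus. Full sense matches to a transcript were found for 4.64% of them in sperm, 8.93% in testis and 19.6% in uterus. Among reads of 24 to 33 nt, 63.1% began with U in sperm, 91.5% in testis and 41.5% in uterus. Annotated small RNA genes took 34.6% of the transcript-matched reads of sperm, 3.80% of testis and 42.8% of uterus. Reads of genes listed here for other cells were present in the sperm library. For 6 epididymal epithelium genes they summed to 27.3 reads per 1000000 library reads (RPM) in sperm, with 3 genes at 0. In testis they summed to 0.673 RPM, with 5 at 0. Of the 429 sperm reads 391 came from Crisp1, and Rnase10 went the other way, with 2 reads in sperm and 16 in testis. Genes listed for leukocytes summed to 11.8 RPM in sperm, with 0 of 4 at 0, and to 0.042 RPM in testis, with 3 at 0. Of the 185 sperm reads 130 came from Cd52, and the cells that gave the Cd52 reads were not tested. Genes listed for Sertoli and Leydig cells summed to 7.07 RPM in sperm, with 2 of 6 at 0, and to 0.294 RPM in testis, with 4 at 0. Of the 111 sperm reads 105 came from Clu, and the cells that gave the Clu reads were not tested. Star went the other way in RPM, with 0.127 in sperm and 0.252 in testis. Smooth muscle genes summed to 1.91 RPM in sperm, 0.042 RPM in testis and 17.6 RPM in uterus (4 genes). Transcripts of 6 spermatid genes, among them protamines and transition proteins, summed to 57.2 RPM in sperm, 1.09 RPM in testis and 0 in uterus. The epithelial miR-200c-3p had 2298 RPM in sperm, 0.420 RPM in testis and 87.2 RPM in uterus. For miR-146a-5p, listed for leukocytes, the values were 98.8 RPM in sperm, 1.64 RPM in testis and 56.3 RPM in uterus. Testis RPM was low for all of these lists, also for the spermatid genes, whose cells testis contains. Of the testis reads 98.0% had 24 to 33 nt, so few were of the shorter length of microRNAs. That concerns the microRNAs only, since the gene lists were counted on reads of 24 to 33 nt. How far a higher RPM in sperm than in testis reflects the content of other cells was not tested. The part of RNA from other cells in the differences below was not tested either.

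The first question is how much of each library the 3 genes take. Gm5878 had 13085 reads in sperm, 77790 in testis and none in uterus. That is 834 RPM in sperm (820 to 848), 3271 RPM in testis (3248 to 3294) and at most 0.189 RPM in uterus, the level that 3 reads would give. 4921525O09Rik had 1824 reads in sperm, 12452 in testis and none in uterus, or 116 RPM in sperm (111 to 122) and 524 RPM in testis (514 to 533). Arhgap20 also had 1824 reads in sperm, with 11857 in testis and 3 in uterus, or 116 RPM in sperm (111 to 122), 499 RPM in testis (490 to 508) and 0.189 RPM in uterus (0.039 to 0.552). All 3 genes thus had reads in both male libraries and at most 3 in uterus. Gm5878 was at least 4413-fold higher in sperm than the uterus limit and 4921525O09Rik at least 615-fold. Per 1000 bases of transcript the levels were 178, 35.5 and 16.2 RPM in sperm and 700, 160 and 69.6 RPM in testis for Gm5878, 4921525O09Rik and Arhgap20, so the genes had the same order in both libraries.

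Measured against all transcript-matched reads of 24 to 33 nt, the share of the 3 genes was lower in sperm than in testis, so the description of them as higher in sperm does not hold on that scale. Gm5878 took 2.50% of those reads in sperm and 3.74% in testis (ratio 0.670, 0.657 to 0.682). 4921525O09Rik took 0.349% in sperm and 0.598% in testis (ratio 0.583, 0.555 to 0.613), and Arhgap20 took 0.349% in sperm and 0.570% in testis (ratio 0.613, 0.583 to 0.644). Among 4438 genes with at least 100 reads in the higher of the 2 libraries, 43.4% were higher in sperm by at least 2-fold and 24.9% were higher in testis by that much, and 0 of the 3 genes were in either class. The median ratio of all these genes was 1.21. In RPM the sperm level was 0.255 times that of testis for Gm5878, 0.222 times for 4921525O09Rik and 0.233 times for Arhgap20. Less RNA per sperm, fewer cells that carry the precursors and a larger content of other small RNAs cannot be told apart in these libraries.

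A larger share in sperm was found against other genes of the same kind. Another scale was the share of transcript-matched reads among reads of 29 to 31 nt alone. It was larger in sperm for Gm5878 (ratio 1.37, 1.34 to 1.40) and Arhgap20 (1.15, 1.09 to 1.22). The interval of 4921525O09Rik included an even share (1.04, 0.969 to 1.105). The total there was also limited to that length, and other genes were not measured on it. Reads of that length made up 83.8% of Gm5878 in sperm and 82.7% in testis, and a smaller part in sperm than in testis for 4921525O09Rik and Arhgap20. A group of 53 genes was defined, after the data were seen, by at least 5000 testis reads that match no other gene, of which at least 80% begin with U, and without annotated small RNA genes. They are called U-start genes here. Together they took 0.677% of all reads in sperm (106164), 6.33% in testis (1504855) and 32 reads in uterus. Of this pool Gm5878 took 12.3% in sperm and 5.17% in testis (ratio 2.39, 2.34 to 2.43). Arhgap20 took 1.72% in sperm and 0.788% in testis (ratio 2.18, 2.07 to 2.29), and the ratio of 4921525O09Rik was 2.08 (1.98 to 2.18). On this scale 7.55% of the 53 genes, these 3 among them, were higher in sperm by 2-fold or more, and 9.43% were higher in testis by that much. The ratio is a description, since the genes were picked for it. Just outside that bound stood the noncoding 4933404O12Rik, at 1.94. The other 50 genes had a median of 0.923, a lowest value of 0.126 and a highest value of 2.16, which is above that of 4921525O09Rik. A list of 6 further precursors (Gm21269, Gm10619, Gm49794, 1700006A11Rik, Asb1 and Cbl) gave ratios of 0.154 to 0.256 in the share of transcript-matched reads, with all 6 under the values of the 3 genes. That list was low among the U-start genes, at ranks 29 to 48 of 53 by the share of U-start reads. In transcript-matched reads the other 50 genes had a median ratio of 0.266 and a highest of 0.636, above 4921525O09Rik and Arhgap20.

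**Figure D1:**
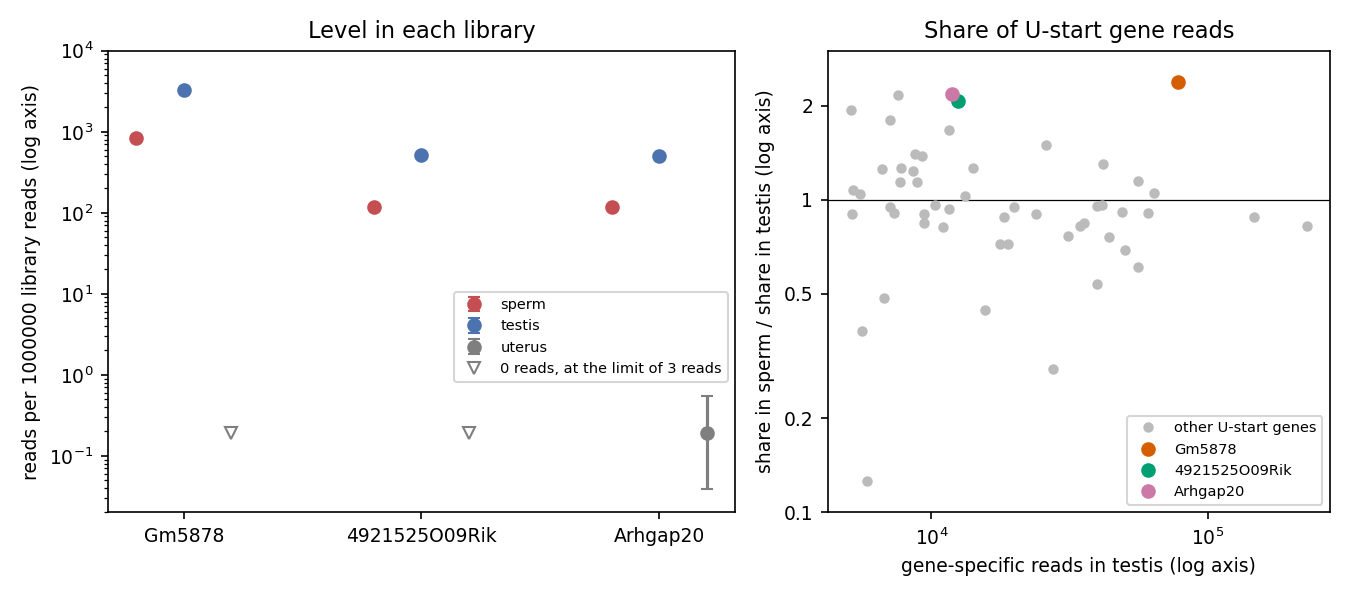
Left: reads per 1000000 library reads on a log axis for each gene in sperm, testis and uterus, with 95% Poisson intervals; open triangles mark 0 reads at the limit of 3 reads. Right: ratio of the share of U-start gene reads, sperm over testis, against testis reads, both on log axes, for 53 genes. Every sperm level lies under its testis level on the left. On the right the 3 genes lie between 2.08 and 2.39, and the other genes have a median of 0.923 and a highest value of 2.16.

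The main question is whether few sequences or the whole gene carry that larger share. The 3 genes differed. In Gm5878 a pair of neighbouring 5′ ends carried most of it, and in 4921525O09Rik it was spread over most of the transcript. In Arhgap20 1 stretch of the 3′ UTR was much larger in sperm, at 34.9% of the gene against 3.98% in testis. Without that stretch the ratio of Arhgap20 in the share of U-start reads was still 1.48. With the 10 leading sperm sequences taken out of every U-start gene it was 2.07.

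In Gm5878 the reads of sperm were far more concentrated than those of testis. The 13085 sperm reads held 768 distinct sequences, where 1356 would be expected if the 77790 testis reads, with their 3044 distinct sequences, were thinned to that number. The leading sequence took 25.4% of the reads in sperm, and that of testis 11.4%. The 10 leading sequences took 67.7% in sperm and 33.2% in testis, and 50% of the reads were reached with 3 sequences in sperm and 27 in testis. Reads covered 67.7% of the transcript's bases in sperm and 90.7% in testis, so the rest of the gene was sampled in sperm too, but thinly.

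Those leading sequences start at 2 places 5 bases apart. The 5′ end at base 3178 had 4222 reads in sperm (32.3% of the gene) and 3398 in testis (4.37%), and the 5′ end at base 3183 had 4347 in sperm (33.2%) and 2601 in testis (3.34%). The full sequence printed for base 3178 had 3325 reads in sperm and 2902 in testis, and that for base 3183 had 2495 in sperm and 909 in testis. In RPM the first stood at 212 in sperm and 122 in testis, and the second at 159 in sperm and 38.2 in testis, so both were higher in sperm than in testis even per library read, although the gene as a whole was lower. A form of the second that ends 1 base earlier had 1201 reads in sperm and 656 in testis, and a form of the first that ends 1 base earlier had 434 in sperm and 169 in testis. At base 2885 the sequence had 382 reads in sperm and 219 in testis.

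Other leaders of testis were scarce in sperm. The first of them, at base 1133, had 63 reads in sperm (0.481% of the gene) and 8881 in testis (11.4%), and the sequence at base 3414 had 31 in sperm and 2402 in testis. A further testis leader, from base 4217, had 2 reads in sperm and 1881 in testis. By 200-base windows, assigned by the 5′ end, bases 3001 to 3200 (chr6:85112890-85113089) held 9107 sperm reads, 69.6% of the gene, and 13925 testis reads, 17.9%. The next windows by sperm reads were bases 1001 to 1200, with 546 in sperm and 17119 in testis, and bases 3201 to 3400, with 544 in sperm and 1888 in testis. Windows rich in testis reads and poor in sperm reads thus lay outside the main one. Of 22 windows with at least 50 reads over both libraries, 5 had a ratio of at least 1 in the share of transcript-matched reads and 10 were above an even share of the U-start reads. Without the main window the ratio of Gm5878 was 0.248 (0.240 to 0.256) in the share of transcript-matched reads and 0.883 (0.855 to 0.912) in the share of U-start reads (1 of 24 windows left out). That window was left out for having the most sperm reads and no window of the other U-start genes was, so part of the fall is built in. Exon 3 held 99.7% of the gene's reads in sperm and 99.0% in testis, with 86.0% of its bases.

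**Figure D2:**
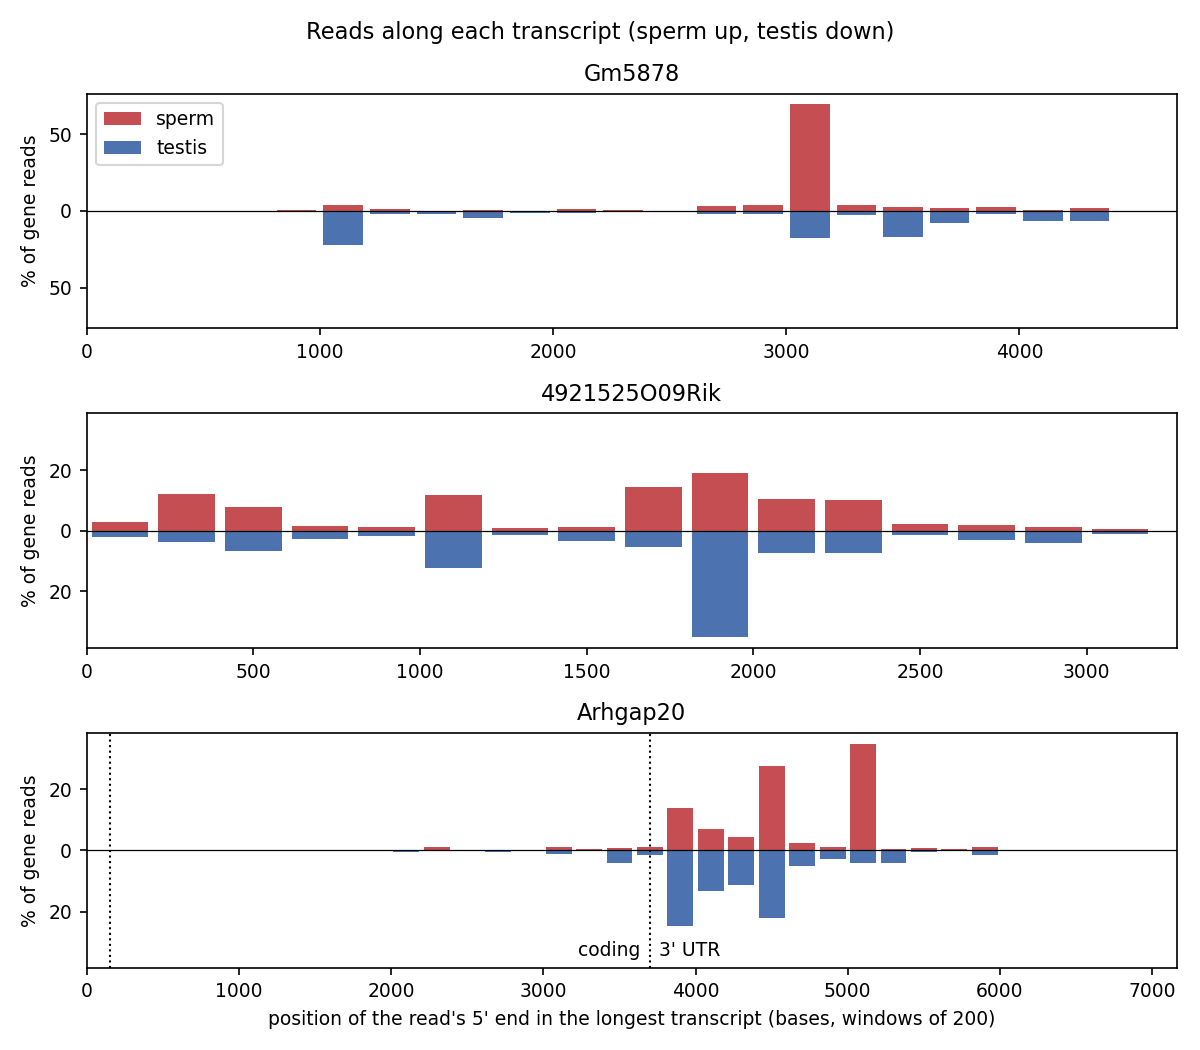
Share of each gene's reads, in percent, whose 5′ end falls in each 200-base window of the longest transcript, with sperm drawn upwards and testis downwards; dotted lines bound the coding part of Arhgap20. Gm5878 has 1 sperm window of 69.6%, 4921525O09Rik has no window above 19.1% in sperm, and Arhgap20 has a sperm window of 34.9% where testis has 3.98%.

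In 4921525O09Rik the 10 leading sequences took about the same share in both libraries, and beyond them sperm was the more concentrated. The leading sequence took 6.30% of the reads in sperm and that of testis 7.75%, and the 10 leading ones took 32.3% in sperm and 32.97% in testis. The 20 leading sequences took 47.4% in sperm and 42.7% in testis, and the 50 leading ones 65.1% in sperm and 56.9% in testis. It took 23 sequences in sperm and 31 in testis to reach 50% of the reads. The 1824 sperm reads held 380 distinct sequences, against 536 expected for testis at that number, so at equal depth sperm held fewer distinct sequences.

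The sequences themselves differed between the libraries, which was not particular to this gene. For each sequence the smaller of its shares of the gene's reads in sperm and testis was taken, and these were summed. That overlap was 30.9% in 4921525O09Rik, 23.3% in Gm5878 and 31.8% in Arhgap20. The other 50 U-start genes had a median of 26.5%. No overlap expected for testis reads thinned to the sperm number was computed, so the part of unequal depth in these values was not tested. The sequence at base 375 had 86 reads in sperm, against 11 in testis, and the one at base 1719 had 79 in sperm and 18 in testis, which makes both higher in sperm in RPM (5.48 in sperm against 0.463 in testis, and 5.03 in sperm against 0.757 in testis). The leader of sperm, a 31 nt sequence from base 2210 in exon 8 (chr13:52123098-52123128), had 115 reads in sperm and 368 in testis. At base 1942 the sequence had 54 reads in sperm and 641 in testis. The testis leader at base 1848 had 3 reads in sperm, against 965 in testis, and the one at base 1944 had 10 in sperm and 443 in testis. Some leaders of testis were thus scarce in sperm here as well. Over all lengths of a 5′ end, base 1719 had 134 reads in sperm and 109 in testis, while base 1075 had 89 in sperm and 1011 in testis.

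Along the transcript, the window with most sperm reads was the one in which testis had most, bases 1801 to 2000, with 349 reads in sperm (19.1% of the gene) and 4399 in testis (35.3%). It was followed by bases 1601 to 1800, with 261 reads in sperm (14.3%), against 657 in testis (5.28%), and bases 201 to 400, with 220 in sperm (12.1%) and 454 in testis (3.65%). Of 16 windows with at least 50 reads, 14 were above an even share of the U-start reads and 2 had a ratio of at least 1 in transcript-matched reads. Without its largest window the ratio was 2.60 (2.45 to 2.74) in the share of U-start reads, higher than with it. Exon 7 held 34.3% of the reads in sperm and 43.5% in testis, exon 8 held 26.04% in sperm and 22.2% in testis, and exon 2 held 14.4% in sperm and 5.53% in testis. All 8 exons had reads in both libraries.

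In Arhgap20 the reads of both libraries came mostly from the 3′ UTR. It held 1730 reads in sperm (94.8%) and 10676 in testis (90.04%), on 48.3% of the transcript's bases. The coding part held 94 reads in sperm (5.15%) and 1180 in testis (9.95%). No library had a read in the 155 bases of the 5′ UTR. The share of the coding part within the gene was 0.518 times as large in sperm as in testis (0.415 to 0.639).

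Within the 3′ UTR the libraries used different stretches. Bases 5001 to 5200 (chr9:51851696-51851895) held 637 sperm reads, 34.9% of the gene, and 472 testis reads, 3.98%, a ratio of 5.37 (4.76 to 6.07) in the share of transcript-matched reads. Bases 4401 to 4600 held 506 reads in sperm (27.7%) and 2628 in testis (22.2%), and bases 3801 to 4000 held 254 in sperm (13.9%) and 2938 in testis (24.8%). The sequence at base 5149 had 154 reads in sperm, against 3 in testis, and the one at base 5147, 2 bases upstream, had 102 in sperm and 8 in testis. In RPM these are 9.81 in sperm against 0.126 in testis, and 6.50 in sperm against 0.336 in testis. A 31 nt form from base 5149 had 96 reads in sperm, against 15 in testis, and the 5′ end at base 5149 had 300 reads in sperm and 23 in testis in all.

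The leader of sperm, at base 4433, had 227 reads in sperm and 356 in testis, or 14.5 RPM in sperm and 15.0 RPM in testis, so its level was close in both libraries. That at base 3964 had 151 reads in sperm and 1982 in testis, where it was the leader, and that at base 4361 had 2 in sperm and 547 in testis. Of 16 windows with at least 50 reads, 3 had a ratio of at least 1 in transcript-matched reads and 9 were above an even share of the U-start reads. Without the window of bases 5001 to 5200 the ratio was 1.48 (1.39 to 1.57) in the share of U-start reads and 0.415 (0.391 to 0.441) in transcript-matched reads. With bases 4401 to 4600 left out as well, 681 sperm reads and 8757 testis reads were left, and the ratio was 1.102 (1.02 to 1.19) in the share of U-start reads. The pair of windows was chosen after the data were seen, for having the most sperm reads, so part of the fall is built in. The 10 leading sequences of Arhgap20 took 50.7% of the reads in sperm and 38.2% in testis, and 50% of the reads were reached with 10 sequences in sperm and 24 in testis.

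**Figure D3:**
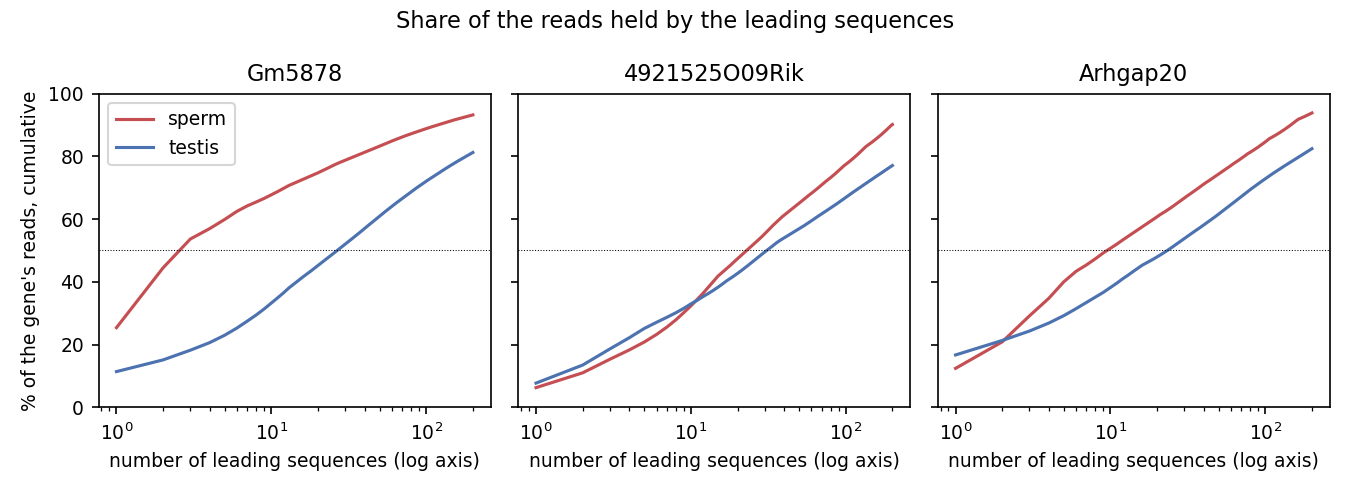
Share of each gene's reads, in percent, that is held by the leading sequences of a library, against their number on a log axis, for sperm and testis; the dotted line is at 50%. Sperm crosses it at 3 sequences in Gm5878, 23 in 4921525O09Rik and 10 in Arhgap20, and testis at 27, 31 and 24.

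Leading sequences were then left out one after another. Taking out the sequences with most sperm reads tends to lower the ratio of a gene by construction, so the values are set beside those of the other U-start genes treated alike. Against the whole pool of U-start reads, Gm5878 stood at 1.85 without its leading sperm sequence, 1.02 (0.992 to 1.05) without 5 and 0.847 without 10. 4921525O09Rik stood at 2.00 without 1, 1.80 without 5, 1.57 without 10 and 0.998 (0.919 to 1.08) without 50. Arhgap20 stood at 1.97 without 1, 1.63 without 5, 1.39 without 10 and 0.829 without 50. When the 10 leading sperm sequences were taken out of every U-start gene, the ratio was 1.26 for Gm5878, 2.34 for 4921525O09Rik and 2.07 for Arhgap20, and the other 50 genes had a median of 0.991 with a highest value of 1.92. On that scale 4921525O09Rik ranked 1, Arhgap20 2 and Gm5878 9 of 53, where they had ranked 4, 2 and 1 with all reads. By the share of the 10 leading sperm sequences Gm5878 ranked 6, Arhgap20 19 and 4921525O09Rik 41 of 53, and the other genes had a median of 44.2%.

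**Figure D4:**
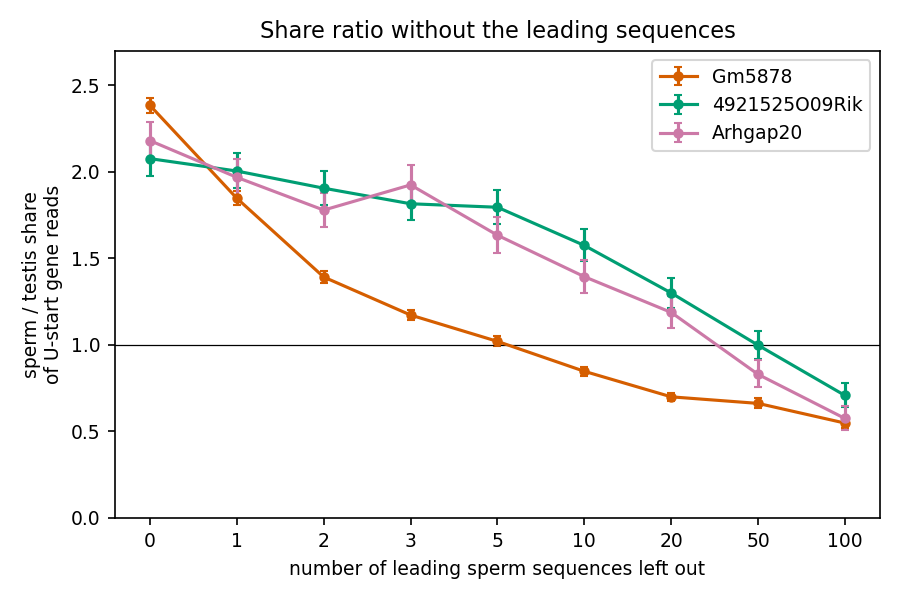
Ratio of the share of U-start gene reads, sperm over testis, after the given number of leading sperm sequences of the gene was left out, with 95% counting intervals; the line at 1 marks an even share. Gm5878 reaches 1.02 after 5 sequences, and 4921525O09Rik reaches 0.998 after 50.

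Most sperm reads had a sequence that testis also held. Of the distinct sperm sequences, 75.0% in Gm5878, 66.1% in 4921525O09Rik and 64.2% in Arhgap20 were also read in testis, and they held 97.2%, 87.1% and 90.4% of the sperm reads. The median of this last share in the other 50 U-start genes was 88.0%, so 4921525O09Rik and Arhgap20 stood near the usual value. The most abundant sperm sequence without a testis read had 18 reads in Gm5878, 20 in 4921525O09Rik and 5 in Arhgap20. The converse was less complete at this depth. Of sequences with at least 20 reads over both libraries, 184 of 419 in Gm5878, 40 of 113 in 4921525O09Rik and 46 of 113 in Arhgap20 had no read in sperm. These shares of 43.9%, 35.4% and 40.7% stood beside a median of 47.7% in the other 50 U-start genes. Those with a higher RPM in sperm numbered 37 in Gm5878, 12 in 4921525O09Rik and 15 in Arhgap20, and they held 74.2%, 24.01% and 33.3% of the gene's sperm reads.

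The first base was U in nearly all reads of both libraries. In Gm5878 95.3% began with U in sperm (94.9 to 95.6%) and 93.99% in testis (93.8 to 94.2%). In Arhgap20 94.7% did so in sperm (93.6 to 95.7%) and 92.6% in testis (92.2 to 93.1%), and in 4921525O09Rik 90.4% in sperm (89.0 to 91.7%) and 93.4% in testis (92.9 to 93.8%). With each distinct sequence counted once, U came first in 80.5% of Gm5878 sequences in sperm and 72.1% in testis, in 80% of 4921525O09Rik sequences in sperm and 72.7% in testis, and in 84.3% of Arhgap20 sequences in sperm and 76.5% in testis. The transcripts themselves hold 26.8% U in Gm5878, 26.3% in Arhgap20 and 24.5% in 4921525O09Rik. The U-start genes were partly chosen by this feature in testis. The sperm values are not independent of that choice, since most sperm reads had a sequence that testis also held. The other 50 genes had a median of 94.3% in sperm.

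A at base 10 of the read was present in 75.9% of Gm5878 reads in sperm and 42.1% in testis, in 33.3% of 4921525O09Rik reads in sperm and 36.7% in testis, and in 11.7% of Arhgap20 reads in sperm and 24.9% in testis. Both printed leaders of Gm5878 in sperm have it, and with each distinct sequence counted once the share was 27.99% in sperm and 29.5% in testis for that gene, and 29.1% in sperm and 29.96% in testis for Arhgap20. The 3 genes thus had no common direction at that base in reads, and the shares of distinct sequences lay close together. The transcript base just after the end of the read was U for 27.7% of Gm5878 reads in sperm and 17.997% in testis, for 30.2% of 4921525O09Rik reads in sperm and 22.7% in testis, and for 10.6% of Arhgap20 reads in sperm and 17.6% in testis.

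The most frequent length was 29 or 30 nt in both libraries. 4921525O09Rik had a further, smaller peak at 27 nt, with 16.6% of its reads in sperm and 11.4% in testis. The mean length was 29.3 nt in sperm and 29.4 nt in testis for Gm5878, 28.5 nt in sperm and 28.8 nt in testis for 4921525O09Rik, and 29.6 nt in both for Arhgap20. Reads of 29 to 31 nt made up 83.8% of Gm5878 in sperm and 82.7% in testis, 56.5% of 4921525O09Rik in sperm and 64.2% in testis, and 79.3% of Arhgap20 in sperm and 85.0% in testis. Reads of 24 and 25 nt were more frequent in sperm in every one of the 3 genes, at 3.16% against 1.59% in testis for Gm5878, 13.5% in sperm against 5.53% in testis for 4921525O09Rik, and 2.14% in sperm against 0.633% in testis for Arhgap20. At single 5′ ends the lengths could shift either way: at base 1719 of 4921525O09Rik the mean was 26.4 nt in sperm and 28.8 nt in testis, and at base 2175 it was 29.1 nt in sperm and 26.6 nt in testis.

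**Figure D5:**
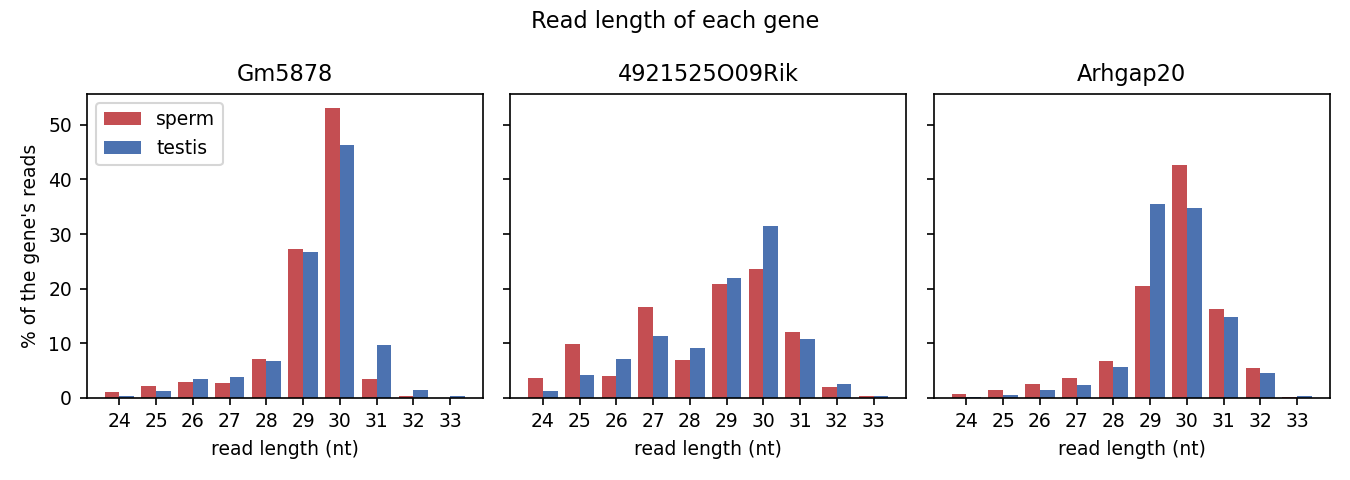
Share of each gene's reads, in percent, at each read length of 24 to 33 nt, for sperm and testis. All 3 genes are highest at 29 or 30 nt in both libraries, and 4921525O09Rik has a smaller peak at 27 nt. It also has the largest share of 24 and 25 nt reads, 13.5% in sperm and 5.53% in testis.

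Exact matching leaves out reads whose last base differs from the transcript. Reads of 25 to 33 nt that match up to their last base, with a U there that the transcript does not have, were therefore counted apart, a choice made after the data were seen. Such U-ended reads made up 11.8% of the exact and U-ended reads of Gm5878 in sperm (11.3 to 12.4%) and 14.2% in testis (14.0 to 14.5%). In 4921525O09Rik they made up 14.2% in sperm (12.7 to 15.8%) and 26.8% in testis (26.1 to 27.4%). Arhgap20 went the other way, with 29.6% in sperm (27.8 to 31.4%) and 13.4% in testis (12.9 to 14.0%). Of the other 50 U-start genes 7 had a higher share in sperm, with medians of 9.44% in sperm and 14.2% in testis. Arhgap20 ranked 2 of 53 in sperm and 34 in testis, and 4921525O09Rik ranked 12 in sperm and 2 in testis.

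The 2 U-ended forms below start where leaders start, and are shown because in sperm they outnumber the exact sequence that each extends. Neither outnumbers the 30 nt leader from the same base, which had 3325 reads in sperm for Gm5878 and 227 for Arhgap20. The capitals mark the first base and the last base that is not in the transcript.
Gm5878 from base 3178 ending in such a U: TaccatagaagacgagtttggactgagcgT
Arhgap20 from base 4433 ending in such a U: TctgaaatggagatacaaagacaaggaagT
The first had 950 reads in sperm and 1306 in testis, and its exact 29 nt part had 434 in sperm and 169 in testis. The second had 94 reads in sperm and 22 in testis, and its exact 29 nt part had 7 in sperm and 40 in testis. The 30 nt leader from that base had 91 reads in sperm and 129 in testis with 1 further U, against 227 and 356 of its exact form. The Arhgap20 sequence printed for base 5149 had 307 reads in sperm and 14 in testis with 1 further U, against 154 in sperm and 3 in testis of the exact form. Reads that carry 1 substitution anywhere were also added to the exact reads of each gene, while the total stayed that of the exact matches. The ratio was then 0.744 (0.713 to 0.775) for Arhgap20, 0.497 (0.476 to 0.520) for 4921525O09Rik and 0.649 (0.638 to 0.660) for Gm5878. Such reads of other genes were not added, so these values are not shares of 1 pool. A difference between the CD1 strain and the reference transcript at the last base was not tested.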

How the data were processed

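Small RNA was ligated to adapters, amplified and sequenced, per the labels' protocols. The deposited tables pair each distinct read with its count, and the whole-number counts show no normalization by the authors. The sperm table and the testis table each end with 1 line without a sequence, which was left out. The build mm9 is named in the submitters' processing notes, but the tables hold no coordinates. For adapter trimming and size selection the sources used here give nothing. Reads of 24 to 33 nt were matched in full and in sense to all transcripts of 55450 GENCODE M21 genes (GRCm38). No genome was used, so copies of a read outside annotated transcripts were not looked for; 29, 0 and 1 sequences of Gm5878, 4921525O09Rik and Arhgap20 also matched another gene. RPM was computed per 1000000 reads of the whole library. Intervals are exact Poisson (RPM), Clopper-Pearson (shares) and conditional exact binomial (ratios) 95% intervals. A count of 0 was taken as at most 3 reads.

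The genes, the lists and the tests were chosen with earlier results of these data known. Named sequences are the 5 most abundant of a gene in sperm and in testis, and named windows the 3 with most sperm reads; single 5′ ends, the U-start genes and the U-ended reads were chosen after their values were seen. A further U-start gene is not reported here by name. Alternatives changed denominators (among them DESeq2 1.42.0 size factors and the TMM factors of edgeR 4.0.16), length windows, match rules, leading sequences and count minimums. Read matching, U-ended reads and ratios were checked on simulated data. The tools were R 4.3.3 and Python 3.11.15 with matplotlib 3.10.9, numba 0.67.0, scipy 1.17.1, pandas 2.3.3 and numpy 2.4.6.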

Additional observations from a re-analysis of the deposited data

Results flagged for a closer look

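Reads outside 24 to 33 nt in sense were not part of the comparisons, and uterus had none of them for the 3 genes. Sense reads of 18 to 23 nt numbered 327 in sperm and 181 in testis for Gm5878, 79 in sperm and 88 in testis for 4921525O09Rik, and 37 in sperm and 50 in testis for Arhgap20. Sense reads of 34 to 44 nt numbered 14 in sperm and 145 in testis for Gm5878, 8 in sperm and 13 in testis for Arhgap20, and 17 in testis for 4921525O09Rik, which had 3 in sperm. Antisense reads of 24 to 33 nt numbered 90 in sperm and 30 in testis for Gm5878, of which 31 in sperm and 2 in testis also match another gene in sense. Arhgap20 had 10 antisense reads in sperm, all of which also match another gene in sense, and 0 in testis.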

How the results depend on the processing

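Ratios of the share of transcript-matched reads, sperm over testis, are given for Gm5878, 4921525O09Rik and Arhgap20 in that order; the reported ones are 0.670, 0.583 and 0.613. Of 17 alternatives for each gene, 4, 3 and 3 put the ratio above 1. These were reads of 29 to 31 nt (1.37, 1.04 and 1.15), reads of 26 to 31 nt for Gm5878 alone (1.09, against 0.873 and 0.975), the share of the reads of U-start genes (2.39, 2.08 and 2.18) and the share relative to the 6 listed precursors (3.02, 2.63 and 2.76); the last pair was chosen after the data were seen. The 6 listed precursors were low among the U-start genes, at ranks 29 to 48 of 53. Ratios nearer to 1 came without annotated small RNA genes (0.985, 0.858 and 0.901) and with reads that match no other gene (0.851, 0.741 and 0.778). Lower ratios came with all reads (0.255, 0.222 and 0.233), all reads of 24 to 33 nt (0.348, 0.303 and 0.319), TMM (0.205, 0.178 and 0.187) and DESeq2 size factors (0.240, 0.209 and 0.220). Distinct sequences gave 0.656, 0.623 and 0.653, and sequences above 1 read 0.715 for Gm5878. Reads with 1 substitution, added to the gene but not to the total, gave 0.649, 0.497 and 0.744. Without the leading sperm sequence Gm5878 stood at 0.519 and Arhgap20 at 0.553, without 10 of them the genes stood at 0.238, 0.442 and 0.392, and without the 10 leading testis sequences at 0.701, 0.758 and 0.739. The other alternatives stayed within the counting interval.

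Genes at least 2-fold higher in sperm numbered 1927 of 4438 as reported, 132 of 860 with gene-specific reads, 7552 of 14465 with a minimum of 10 reads and 338 of 1381 with 1000. Genes at least 2-fold higher in testis numbered 1103 as reported, 2184 with all reads, 2352 with TMM, 2221 with DESeq2 size factors, 498 with gene-specific reads, and 2697 and 516 with those minimums. The cause of these changes was not tested, beyond the number of genes that entered. No paired analysis was possible because each group had 1 library, and for the same reason no library could be left out. The 1824 sperm reads of 4921525O09Rik, and as many of Arhgap20, leave few counts for single sequences.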
